A study of Homo sapiens with 12 samples.

Results

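Endoplasmic reticulum (ER) stress, folding and translocation genes were compared between senescent and non-senescent cultures of EndoC-βH3, a human line with beta-cell traits. The set was a list of 47 gene symbols, and all 47 were found among the 35337 genes of the expression table. The line came from fetal pancreas and was immortalised with floxed hTERT and SV40 large T antigen, which a tamoxifen-activated CreER recombinase removes. Senescent cells had received 4-hydroxytamoxifen for 3 weeks, while non-senescent cells were the untreated control, and both shared the line, its transgenes, the labelled WT genotype and the culture medium. A single line stands for all beta cells here, and drug exposure, loss of the transgenes and arrest of division cannot be told apart. Poly(A) RNA was read at the 3′ end (CEL-seq2) in 6 libraries per group, of which 2 per group belonged to batch A and 4 per group to batch B. The question was which genes of ER protein handling differ between senescent and non-senescent cells, and whether they do so in both batches.

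Secretory proteins such as preproinsulin enter the ER through the SEC61 channel, lose their signal peptide to the signal peptidase, and fold with the help of chaperones and disulfide isomerases. Chains that fail to fold are pulled back to the cytosol and degraded. When unfolded protein builds up, the sensors IRE1 (ERN1), PERK (EIF2AK3) and ATF6 start the unfolded protein response, in which ATF6 and the spliced form of XBP1 switch on chaperone and degradation genes. Beta cells carry a heavy folding load because they make large amounts of proinsulin.

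Values are normalised read counts, that is, read numbers per gene divided by 1 size factor per library. Groups were compared with limma on log2(value + 1) with batch as a term, for 13847 genes with a mean of at least 5, and all 47 genes passed that filter. A gene was said to have risen or fallen if its adjusted p over all genes tested was under 0.1 and its fold change over 1.5. By this rule 9 of the 47 genes (19.1%) rose in senescent cells, against 11.6% of all genes tested. They were ATF6, the chaperones HSPA5, HSP90B1, HYOU1 and DNAJB9, the isomerase PDIA3, the degradation scaffold SEL1L, and SEC62 and SSR4 of the translocation machinery. With limma, 0 of the 47 fell, against 11.8% of all genes tested. At an unadjusted p under 0.05, 4 were lower, 0 of them past the fold limit, and edgeR and DESeq2 also called 0 lower.

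Without the fold limit, 23 of the 47 (48.9%) were higher at an adjusted p under 0.1, against 23.2% of all genes tested. Another 4 (8.51%) were lower, against 22.3%, and 20 did not pass. The median log2 fold change of the 47 was 0.24, and that of all genes tested was 0.01. Scaling every library to the same total shifted the median of all genes to -0.09 and that of the 47 to 0.14. At that scaling 5 of the 47 were called higher (ATF6, HSPA5, HSP90B1, DNAJB9 and SEC62), which is 10.6% against 8.85% of all genes and so near the background. Another 2 were called lower (TXNDC5 and SEC61B), 4.26% against 15.1%, and the share of all calls that were higher was 36.9% in place of 49.6%. The genes nearest the fold limit were PDIA3 and HYOU1 inside it, at 1.51-fold and 1.52-fold, and PDIA4 and TXNDC11 outside it, at 1.49-fold and 1.48-fold. Since the samples are bulk RNA, more RNA per cell and a change in the mix of cells cannot be told apart.

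**Figure D1:**
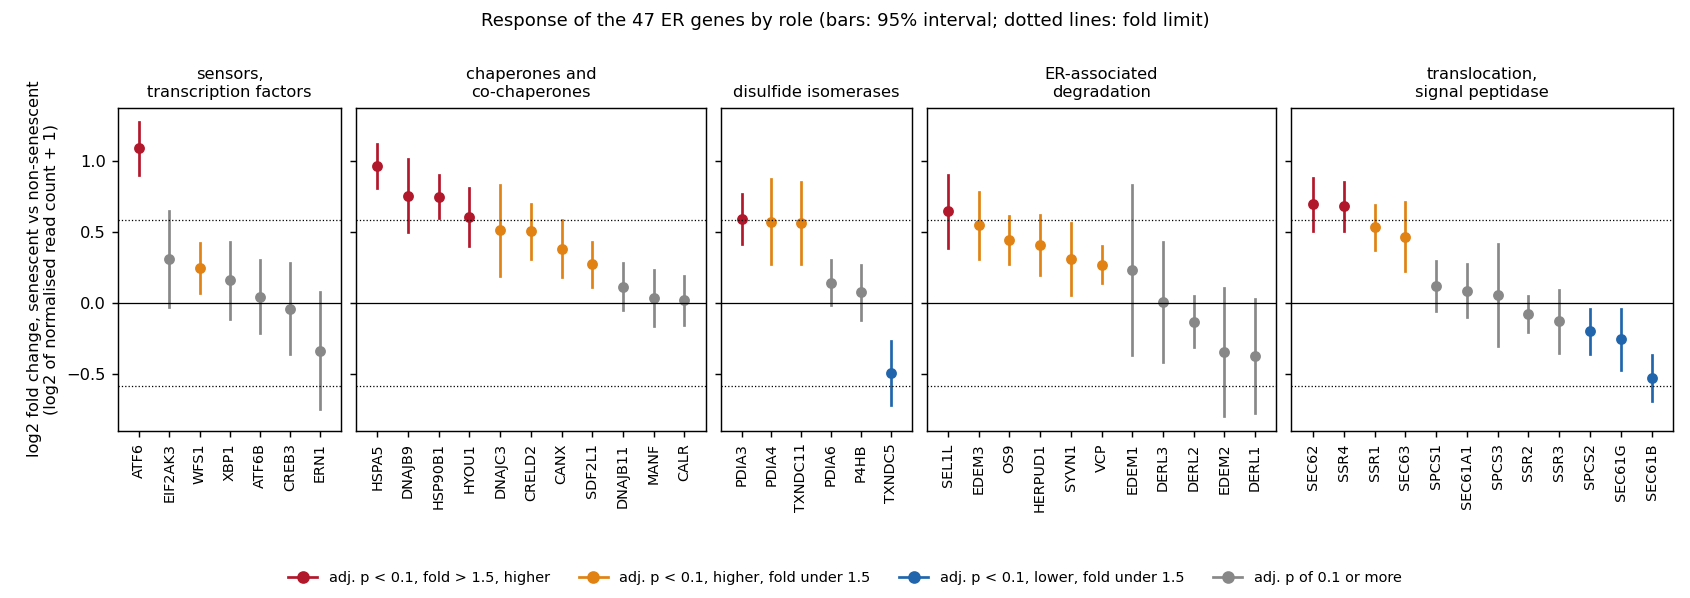
Log2 fold change of each of the 47 genes between senescent and non-senescent cells (limma, 6 libraries per group), arranged by role, with 95% intervals as bars and the 1.5-fold limit as dotted lines. The 9 genes that rose are in red, led by ATF6 at 1.09, and the 4 lower genes in blue lie inside the limit, down to -0.53 for SEC61B.

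Depth was 8873569 to 17106776 reads per library in batch A and 4672924 to 7063264 in batch B, and batch was the larger source of variance, with 57.6% on the first principal component. The cell-cycle inhibitor gene CDKN1A rose by 3.92 and INS by 2.23 on the log2 scale, and the proliferation gene MKI67 fell by 2.83, in both batches. The large T antigen has no row of its own, and TERT had a log2 fold change of 0.28 (limma adjusted p 0.107), so these rows do not check the loss of the transgenes. All 17 beta-cell markers were detected, with summed values of 531957 to 681965 in non-senescent and 680315 to 896418 in senescent libraries. Of them 5 were higher and 1, PCSK1, lower. CHGA makes up most of these sums, with means of 553090 and 646103, so they say little of the other markers. The 7 markers of other islet cells summed to 208220.2 to 410630.3 and 284619.7 to 362707, 5 passing the filter, with TTR higher and GCG, SST and HHEX lower. Those sums are mostly SST and TTR, which moved in opposite directions. The 8 exocrine markers summed to 272 to 437 and 222 to 405, with CPA1 higher and KRT19 lower. The 10 stromal, endothelial and immune markers summed to 35.8 to 184 and 31.9 to 94.998, with PTPRC lower and PDGFRB and VWF at 0 in every library. The part of these shifts in the ER genes was not tested.

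ATF6 and XBP1 are known to bind short promoter elements, so the promoters of the set were searched for them on both strands. The ER stress response element (ERSE) is CCAAT and CCACG with 9 bases between them, ERSE-II is ATTGG and CCACG with 1 base between them, and the unfolded protein response element (UPRE) was searched as TGACGTGG. Only exact matches of these letters were counted, so a gene without one may still hold a near match. RefSeq windows (GRCh38.p14) from 250 bases before to 50 after a transcription start were found for 43 of the 47 genes, 54 windows in all. At least 1 element lay in 16 of the 43 genes (37.2%), against 295 of 27305 genes (1.08%) and 0.857% of all 35116 windows. ERSE lay in 7 members (16.3%, against 0.0916% of all genes), ERSE-II in 3 (6.98%, against 0.0696%) and UPRE in 7 (16.3%, against 0.927%). Many of the 47 are textbook targets of this response, so the share describes the set and the letters alone do not show that a factor was bound.

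The 250 bases before the start are shown for the 3 chaperone genes that both rose and hold an element, each read 5′ to 3′ on the gene's own strand, with the element in capitals. HSPA5 lies on the minus strand (chr9:125241344-125241593), HYOU1 on the minus strand (chr11:119057206-119057455) and HSP90B1 on the plus strand (chr12:103930160-103930409). The start is that of RefSeq, while the gene positions given below are from GENCODE and begin farther upstream. The stretches of HSPA5 and HYOU1 therefore lie partly inside those positions, and that of HSP90B1 wholly.
HSPA5: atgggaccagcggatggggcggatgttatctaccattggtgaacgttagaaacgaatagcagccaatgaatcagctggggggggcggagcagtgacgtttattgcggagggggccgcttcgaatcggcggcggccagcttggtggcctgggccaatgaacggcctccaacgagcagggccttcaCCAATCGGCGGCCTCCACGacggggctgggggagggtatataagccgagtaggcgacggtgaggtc
HSP90B1: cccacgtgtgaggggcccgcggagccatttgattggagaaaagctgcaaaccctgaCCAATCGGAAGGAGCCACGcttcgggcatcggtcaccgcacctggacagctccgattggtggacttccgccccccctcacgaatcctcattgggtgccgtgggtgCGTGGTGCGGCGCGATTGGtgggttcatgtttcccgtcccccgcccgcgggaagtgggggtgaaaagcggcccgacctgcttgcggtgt
HYOU1: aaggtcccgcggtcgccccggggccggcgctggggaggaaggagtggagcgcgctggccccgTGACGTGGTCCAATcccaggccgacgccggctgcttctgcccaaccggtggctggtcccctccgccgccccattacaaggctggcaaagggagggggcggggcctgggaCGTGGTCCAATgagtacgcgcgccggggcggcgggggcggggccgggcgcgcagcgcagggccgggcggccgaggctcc
The exact ERSE match of HSPA5 spans positions -66 to -48 from the start. HSP90B1 holds an ERSE at -194 to -176 and another at -89 to -71, read on the other strand. HYOU1 holds an ERSE-II at -185 to -175 and another at -79 to -69, both read on the other strand, and its UPRE at -188 to -181 shares bases with the farther of them.

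Shorter stretches, with 12 bases on each side, show the same elements in genes with different responses.
XBP1, ERSE: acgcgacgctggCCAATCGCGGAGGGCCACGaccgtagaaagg
CRELD2, ERSE: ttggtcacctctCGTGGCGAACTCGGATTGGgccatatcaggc
PDIA6, ERSE: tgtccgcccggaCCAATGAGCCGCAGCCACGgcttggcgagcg
CALR, ERSE: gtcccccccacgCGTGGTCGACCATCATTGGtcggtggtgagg
HERPUD1, ERSE-II: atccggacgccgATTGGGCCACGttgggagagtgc
SDF2L1, ERSE-II: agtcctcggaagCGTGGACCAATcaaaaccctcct
SEC62, UPRE: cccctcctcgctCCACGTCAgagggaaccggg
SSR4, UPRE: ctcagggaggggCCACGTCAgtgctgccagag
They lie on GRCh38.p14 at chr22:28800591-28800633 (minus strand), chr22:49918542-49918584 (plus), chr2:10812841-10812883 (minus), chr19:12938372-12938414 (plus), chr16:56932013-56932047 (plus), chr22:21642102-21642136 (plus), chr3:169966778-169966809 (plus) and chrX:153794527-153794558 (plus), in that order. In CRELD2, CALR, SDF2L1, SEC62 and SSR4 the element is read on the other strand, so its reverse complement appears. Of the 7 ERSE genes, HSPA5 and HSP90B1 rose, while the log2 fold changes of CRELD2, CANX, XBP1, PDIA6 and CALR were 0.50, 0.38, 0.16, 0.14 and 0.02. Of the 16 genes with an element 5 rose (31.2%), and of the 27 without one 3 rose (11.1%), namely ATF6, DNAJB9 and SEL1L. Of all genes tested 11.6% rose. PDIA3, the other gene that rose, had no window, so these shares rest on 8 risen genes. Their difference was not tested.

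Among the 7 sensors and transcription factors, ATF6 alone rose, and WFS1 was higher under the fold limit. Beside the counts of this and the next roles, 11.6% of all genes tested rose. By adjusted p, 23.2% of all genes were higher and 22.3% lower. ATF6 encodes a membrane-bound factor that is cut in the Golgi under stress, a step that RNA does not show. In non-senescent libraries ATF6 (chr1:161766298-161977574) stood at 226 and 231 normalised read counts in batch A and at 333, 301, 389 and 329 in batch B. In senescent libraries it stood at 451 and 494 in batch A and at 645, 675, 833 and 782 in batch B. Every senescent library lay above every non-senescent one. The mean went from 302 ± 63.3 to 647 ± 152 (SD, n = 6 each), a log2 fold change of 1.09 ± 0.09 (SE; limma adjusted p 3.33e-08). The response was alike in size in the batches, 1.04 in A and 1.11 in B. Its relative ATF6B, another cleaved factor, had a log2 fold change of 0.04 (95% interval -0.22 to 0.30), which was -0.06 with libraries scaled to the same total.

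XBP1, whose spliced RNA encodes an activator of chaperone and degradation genes, moved in opposite directions in the batches. In batch A it stood at 668 and 696 in non-senescent and at 469 and 522 in senescent libraries. In batch B it stood at 310.2, 346, 319 and 323 in non-senescent and at 417, 474, 449 and 457 in senescent libraries. The groups did not overlap in either batch, with senescent libraries lower in A and higher in B. The log2 fold change was -0.46 in A and 0.47 in B, a difference of 0.93 (limma interaction, adjusted p 0.00216), and 0.16 over both (adjusted p 0.358). Reads at the 3′ end do not tell the spliced from the unspliced form.

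ERN1, the kinase and endonuclease that splices XBP1, stood at 185 and 209.8 in non-senescent and 114 and 108 in senescent libraries of batch A. In batch B it stood at 70.8, 33.0, 57.0 and 41.0 in non-senescent and 42.4, 42.0, 40.1 and 58.5 in senescent libraries. Senescent libraries were lower without overlap in A, and the groups overlapped in B. Its log2 fold change was -0.34 ± 0.20 (SE; limma adjusted p 0.19), with -0.82 in A, where it passed both limits when that batch was fitted alone, and -0.10 in B. EIF2AK3, the kinase that slows translation by acting on eIF2α, stood at 45.6 and 37.4 in non-senescent and 59.7 and 55.6 in senescent libraries of batch A. Batch B gave 61.7, 68.8, 61.4 and 85.7 in non-senescent and 99.4, 89.2, 81.3 and 58.5 in senescent libraries. The EIF2AK3 groups were apart in A and overlapped in B, and the log2 fold change was 0.31 ± 0.16 (SE; limma adjusted p 0.143). WFS1, an ER membrane protein whose loss causes Wolfram syndrome with diabetes, had a log2 fold change of 0.24 (adjusted p 0.029). CREB3, another membrane-bound factor, had -0.04 (adjusted p 0.863).

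Of the 11 chaperones and co-chaperones, 4 rose and 8 were higher by adjusted p, against 11.6% and 23.2% of all genes tested. Their median log2 fold change of 0.50 was the highest of the 5 roles. HSPA5 encodes BiP, the main Hsp70 of the ER and the protein that holds the stress sensors inactive. HSPA5 (chr9:125234853-125241382) stood at 1322 and 1415 in non-senescent and at 2421 and 2239 in senescent libraries of batch A. In batch B the values were 1524, 1780.0, 1778 and 1852 in non-senescent and 3594, 3808, 3841 and 3262 in senescent libraries. All senescent libraries lay above all non-senescent ones, in batch B by the wider margin. The mean went from 1612 ± 221 to 3194 ± 703 (SD, n = 6 each), a log2 fold change of 0.97 ± 0.07 (SE; limma adjusted p 1.99e-08).

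HSP90B1 encodes GRP94, the Hsp90 of the ER. HSP90B1 (chr12:103930107-103953931) stood at 1583 and 1644 in non-senescent and at 2340.2 and 2196 in senescent libraries of batch A. In batch B it stood at 1450.1, 1528, 1631 and 1515 against 2878, 2773, 2961 and 2647. The groups were apart, and the log2 fold change of 0.75 ± 0.07 (SE; limma adjusted p 3.2e-07) was 0.49 in A and 0.88 in B. DNAJB9, also named ERdj4, is a co-chaperone that brings clients to BiP. DNAJB9 (chr7:108569867-108574850) stood at 161 and 193 against 273 and 229 in batch A, and at 117, 179, 142 and 160.3 against 268, 317, 255 and 258 in batch B. The lowest senescent library lay above the highest non-senescent one, and the log2 fold change was 0.76 ± 0.12 (SE; limma adjusted p 9.61e-05).

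HYOU1 encodes the nucleotide exchange factor that resets BiP. HYOU1 (chr11:119044188-119057227) stood at 909 and 999 in non-senescent and 1149 and 1175 in senescent libraries of batch A. In batch B it stood far lower, at 269.5, 340.0, 332 and 323 against 514, 490.1, 529.9 and 617. The groups were apart within each batch but not across them, and the log2 fold change was 0.61 ± 0.10 (SE; limma adjusted p 0.0001), with 0.29 in A and 0.76 in B. The call of HYOU1 lay near the fold limit: it was 0.54 without non-senescent library B1 and 0.55 without senescent library B4, array weights gave 0.51 and edgeR 0.58, each under the limit of 0.585 on the log2 scale.

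The other 4 chaperone genes that passed the adjusted p alone were DNAJC3 (0.51), CRELD2 (0.50), CANX (0.38) and SDF2L1 (0.27). DNAJC3 and SDF2L1 encode partners of BiP and its co-chaperones, and CANX encodes the membrane-bound lectin chaperone of glycoproteins. CRELD2 was the steadiest of them over the batches, with 0.48 in A and 0.51 in B, from 359 ± 33.8 to 509.7 ± 53.5 normalised read counts (SD, n = 6 each). DNAJC3 passed the fold limit without senescent library B4 (0.63), in which it stood at 238 against 386 to 501 in the other senescent libraries of batch B. DNAJB11, another BiP co-chaperone (0.11), the stress-secreted factor MANF (0.04) and CALR, the soluble partner of CANX (0.02), did not pass, and the last 2 were negative with libraries scaled to the same total (-0.07 and -0.09). For CALR the 95% interval ran from -0.16 to 0.19 and for MANF from -0.16 to 0.23.

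**Figure D2:**
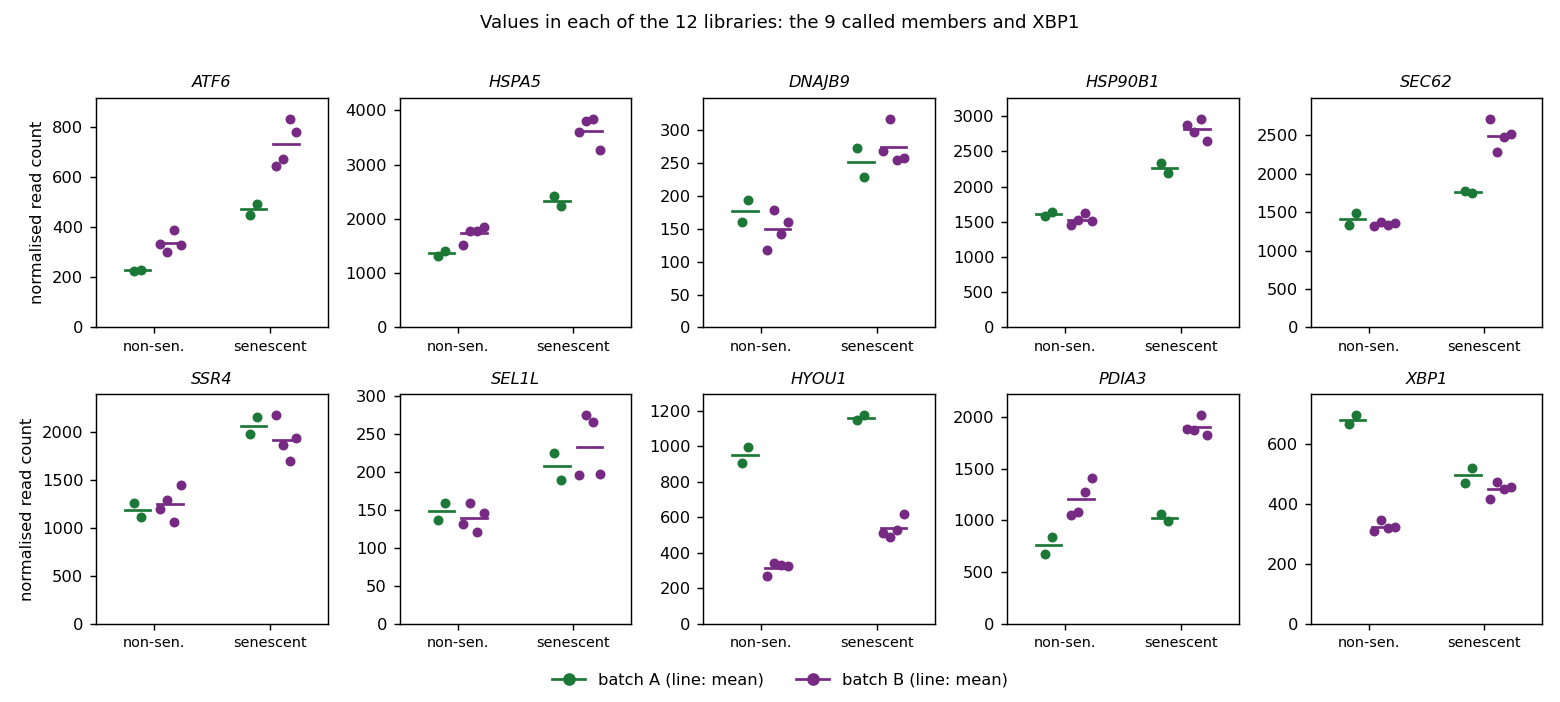
Normalised read count of the 9 genes that rose and of XBP1 in each of the 12 libraries, with batch A in green (2 per group), batch B in purple (4 per group) and lines at the means. In each of the 9 the senescent points lie above the non-senescent points of the same batch, while XBP1 goes down in batch A and up in batch B.

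Of the 6 disulfide isomerases, PDIA3 rose, PDIA4 and TXNDC11 were higher under the fold limit, and TXNDC5 was lower under it. PDIA3 encodes ERp57, which works with CALR and CANX on glycoproteins. PDIA3 (chr15:43746394-43773279) stood at 672 and 843 against 1059.9 and 991 in batch A, and at 1057, 1082, 1273 and 1415 against 1889, 1878, 2019 and 1831 in batch B. Senescent libraries were higher without overlap within each batch, and the log2 fold change was 0.59 ± 0.09 (SE; limma adjusted p 3.03e-05). The call of PDIA3 fell under the fold limit without non-senescent library A1 (0.57), B1 (0.55) or B2 (0.55) or senescent library B3 (0.57), and with edgeR, DESeq2 (0.58 each) or array weights (0.57). PDIA4, from 178 ± 116 to 244 ± 111 normalised read counts (SD, n = 6 each), had 0.57, with 0.23 in A and 0.74 in B. These SDs hold the step between batches, with non-senescent means of 325 in A and 104 in B. PDIA4 passed the limit without any 1 of 7 libraries, at 0.60 to 0.63. TXNDC11, from 60.6 ± 7.23 to 90.5 ± 11.9, also had 0.57, and passed it without non-senescent library B1 (0.62) or B4 (0.60) or senescent library B2 (0.63), or with array weights (0.60).

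TXNDC5, a member of the family with several thioredoxin-like domains, went the other way. It stood at 113 and 107 against 98.3 and 85.8 in batch A, and at 315, 332, 259 and 344 against 190.3, 207, 193 and 223 in batch B. The senescent libraries were lower without overlap in both batches, and the log2 fold change was -0.49 ± 0.11 (SE; limma adjusted p 0.00148). TXNDC5 shares exons with the readthrough gene BLOC1S5-TXNDC5 on the same strand, so its value is uncertain. P4HB, the classical disulfide isomerase (0.07, adjusted p 0.572), and PDIA6 (0.14, adjusted p 0.155) did not pass, and P4HB was -0.03 with libraries scaled to the same total.

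Of the 11 genes of ER-associated degradation, SEL1L rose, 5 more were higher by adjusted p and 5 did not pass. Among all genes tested 11.6% rose and 23.2% were higher by adjusted p. SEL1L is the scaffold of the membrane ubiquitin ligase SYVN1 (HRD1), which marks misfolded chains. SEL1L (chr14:81471547-81533853) stood at 137 and 159.7 against 225 and 189.6 in batch A, and at 131, 159.7, 121 and 147 against 196, 275, 266 and 198 in batch B. All senescent libraries lay above all non-senescent ones, and the log2 fold change was 0.65 ± 0.12 (SE; limma adjusted p 0.000424), or 0.58 and under the fold limit without senescent library B2. SYVN1 itself had 0.31 (adjusted p 0.0498), with -0.01 in A and 0.47 in B. The mannosidase-like EDEM3 had 0.55, the lectin OS9 0.44, the membrane adaptor HERPUD1 0.41 and VCP, the ATPase that pulls chains out of the membrane, 0.27, with adjusted p from 0.000342 to 0.00342.

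EDEM3 passed the fold limit when any 1 of the 4 libraries of batch A was left out, at 0.59 to 0.61, and had 0.75 in B against 0.14 in A. HERPUD1 leaned the other way, with 0.63 in A and 0.30 in B. VCP had the narrowest spread of them, from 729 ± 15.4 to 880.2 ± 59.3 normalised read counts (SD, n = 6 each). Its relatives in the pathway EDEM1 (0.23), EDEM2 (-0.35), DERL1 (-0.38), DERL2 (-0.13) and DERL3 (0.00) did not pass. EDEM1 and DERL3 are low genes, from 6 to 93 and from 22 to 84 reads per library, and both went down in A (-0.32 and -0.56) and up in B (0.51 and 0.28), though the interaction test did not pass (limma adjusted p 0.557 and 0.297). For DERL1, a rhomboid-like membrane protein, the 95% interval was -0.78 to 0.03.

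Of the 12 genes of translocation and signal peptide removal, 2 rose, and by adjusted p 2 more were higher and 3 lower. Among all genes tested 11.6% rose, and 23.2% were higher and 22.3% lower by adjusted p, so these counts are near the background. The median log2 fold change of the 12 was 0.07. SEC62 and SEC63 form the module that helps the channel take up chains after translation, with BiP as the motor. SEC62 (chr3:169966635-169998373) stood at 1337 and 1490.1 against 1770.5 and 1749 in batch A, and at 1318, 1378, 1338 and 1360.5 against 2713, 2279.5, 2477 and 2512 in batch B. The groups were apart in both batches, and the log2 fold change of 0.70 ± 0.09 (SE; limma adjusted p 7.84e-06) was 0.32 in A and 0.88 in B. SEC63 stood at 372 and 408 against 374 and 367 in batch A, and at 399, 439, 421 and 383 against 705, 652, 683 and 691 in batch B. It did not separate the groups in A, and its log2 fold change was 0.47 over both batches, -0.07 in A and 0.73 in B.

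SSR1 to SSR4 encode the translocon-associated protein complex, which helps some chains enter the channel. SSR4 (chrX:153793516-153798499) stood at 1259.9 and 1111 against 1974 and 2157 in batch A, and at 1197, 1293, 1065 and 1444 against 2174, 1861, 1695 and 1938 in batch B. All senescent libraries of SSR4 lay above all non-senescent ones, and the log2 fold change was 0.68 ± 0.08 (SE; limma adjusted p 5.38e-06), with 0.80 in A and 0.62 in B. Under the same-total scaling it was 0.57, below the fold limit. SSR1 had 0.53 (adjusted p 2.33e-05), from 1404 ± 218 to 2016 ± 125 (SD, n = 6 each), while SSR2 (-0.08) and SSR3 (-0.13) of the same complex did not pass. For SSR2 the 95% interval was -0.21 to 0.05, and for SSR3 -0.35 to 0.09.

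The small channel subunits, SEC61B and SEC61G, were lower by adjusted p. SEC61B, the beta subunit of the channel, stood at 973 and 928 against 721 and 657 in batch A, and at 1953, 1856, 1457 and 1973 against 1163, 1276, 1158 and 1270.5 in batch B. It was lower without overlap in both batches, with a log2 fold change of -0.53 ± 0.08 (SE; limma adjusted p 4.06e-05), and -0.59, past the fold limit, without non-senescent library B3. SEC61G, the gamma subunit, had -0.26 (adjusted p 0.0517), -0.53 in A and -0.12 in B, while SEC61A1, the pore subunit, had 0.08 (adjusted p 0.489), which turned to -0.02 at the same total. Among the signal peptidase subunits SPCS2 had -0.20 (adjusted p 0.044), and SPCS1 (0.12) and SPCS3 (0.06, or -0.05 at the same total) did not pass.

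Senescent and non-senescent libraries did not overlap in the same direction in both batches for 20 of the 47 genes. Of these, 18 were higher in senescent cells (38.3%, against 11.9% of all genes tested), and 2 were lower (4.26%, against 11.9%), TXNDC5 and SEC61B. In batch A alone 5 more were apart and higher (EIF2AK3, WFS1, DNAJC3, HERPUD1 and SPCS1), which is 10.6% against 21.6% of all genes tested. In that batch 9 were apart and lower (ERN1, EDEM1, DERL1, DERL2, DERL3, SEC61A1, SEC61G, SSR3 and SPCS2), 19.1% against 20.6%. In batch B alone 3 were apart and higher (DNAJB11, SYVN1 and SEC63), 6.38% against 2.87%, and 0 were apart and lower, against 2.77%. Batch A has 2 libraries per group, so its groups come apart more readily than the 4 per group of batch B.

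The response was larger in batch B for 8 of the 9 genes that rose, though by little for ATF6 (1.04 and 1.11), with SSR4 the exception. Batch B holds most libraries of the fit that chose these 9, so this count leans towards B by that choice. The median over the 47 was 0.10 in A and 0.28 in B, against 0 and 0.01 over all genes tested. With each batch fitted alone, 5 of the 47 were called higher in A (ATF6, HSPA5, TXNDC11, HERPUD1 and SSR4), 10.6% against 12.3% of all genes, and 14 in B, 29.8% against 12.5%. In A 1 was called lower (ERN1, against 11.9% of all genes), and in B 1 (TXNDC5, against 12.5%). The test of the difference between batches passed for 4 of the 47 genes (8.51%, against 4.21% of all genes tested), each with the more positive response in B. They were XBP1, SEC63 (a difference of 0.81, limma adjusted p 0.00521), SEC62 (0.57, adjusted p 0.0181) and HSP90B1 (0.39, adjusted p 0.0863). XBP1 and SEC63 passed with every single library left out, and SEC62 missed without non-senescent A2 (0.49) or senescent A2 (0.56). HSP90B1 missed in 10 of the 12 such fits and with TMM or upper quartile scaling, edgeR or no filter. Without the intensity trend SEC62 and HSP90B1 both missed. Batch A and B differ in depth and in the size of other responses, with CDKN1A at 2.18 in A and 4.78 in B and INS at 2.54 and 2.08. The part of either in the ER genes was not tested.

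**Figure D3:**
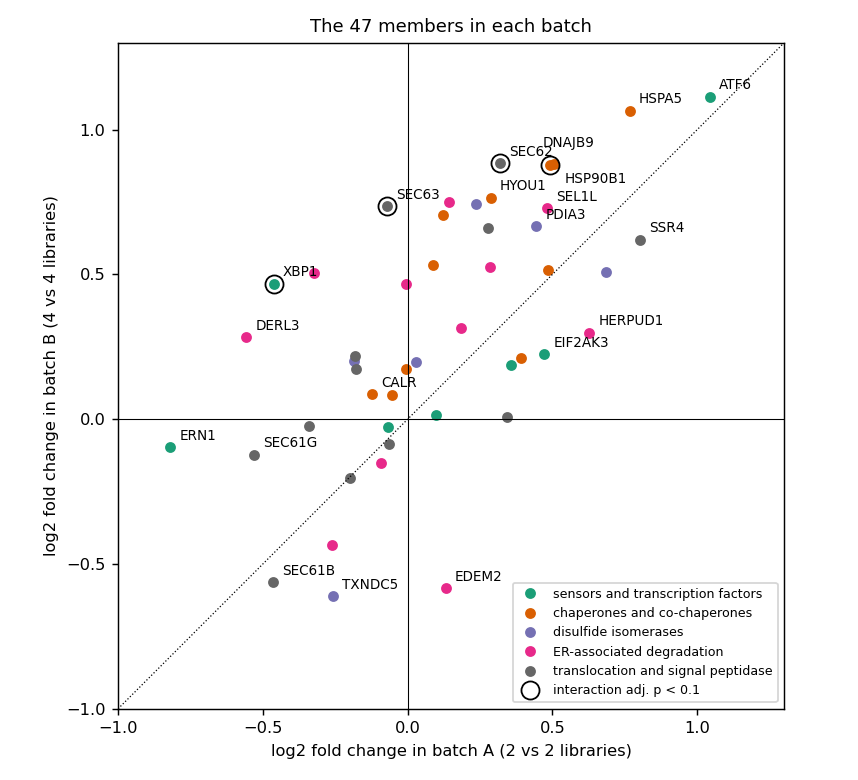
Log2 fold change of each of the 47 genes in batch A (x axis, 2 against 2 libraries) and batch B (y axis, 4 against 4), colored by role, with the 4 genes whose batches differed by the interaction test ringed. Most points of the upper right lie above the dotted line of equal response, XBP1 sits at -0.46 and 0.47, and TXNDC5 and SEC61B are negative on both axes.

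Summed over the 47 genes, the share of library reads was 0.440% ± 0.034 in non-senescent and 0.514% ± 0.0186 in senescent cells (SD, n = 6 each), a ratio of 1.17, with 1.02 in A and 1.25 in B. The chaperone share went from 0.132% ± 0.0254 to 0.177% ± 0.00461, a ratio of 1.33, with 1.101 in A and 1.497 in B. Degradation genes had a ratio of 1.22, sensors 1.19, isomerases 1.102 and translocation genes 1.05. In batch A the isomerase and translocation shares were lower in senescent cells, with ratios of 0.949 and 0.961. The sums follow the most read genes, so the chaperone share is led by CANX, HSPA5 and HSP90B1.

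**Figure D4:**
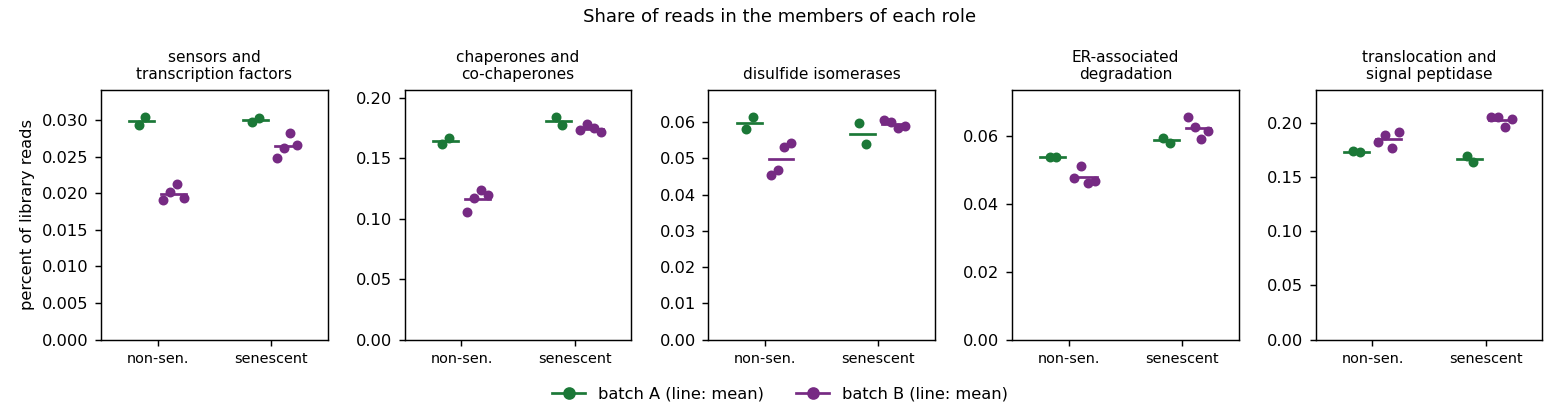
Percent of each library's reads in the genes of each of the 5 roles, with batch A in green, batch B in purple and lines at the means. The chaperone share spans 0.105 to 0.124 percent in non-senescent and 0.171 to 0.178 percent in senescent libraries of batch B, and 0.162 to 0.166 and 0.177 to 0.184 percent in batch A, and the translocation share of batch A lies slightly lower in senescent cells.

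INS reads grew by more than those of any of the 47 genes. Non-senescent libraries held 98.8 to 261 reads of the 47 genes for every 100 reads of INS, and senescent libraries held 20.5 to 80.4, without overlap. In batch A the values were 98.8 and 127 against 23.0 and 20.5, and in batch B 177 to 261 against 57.1 to 80.4. The ratio compares 3′ reads of RNA, and says nothing of the amount of proinsulin or of the ER proteins.

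Covariation of the 47 genes within groups and batches was described by the correlation of each pair. After removal of the mean of each group in each batch, the median Pearson r over the 1081 pairs of the 47 was 0.03 across the 12 libraries, against -0.000815 over all pairs of genes tested. The highest of the 1081 values were TXNDC5 with SEC61B (r 0.92) and SEL1L with HERPUD1 (r 0.90), and the lowest was -0.83. They are the extremes of many pairs, and a meaning for them was not tested. These libraries share depth and scaling between genes, and 12 libraries give each r little precision, so the values are a description.

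The rest of the ER machinery was read from a wider list of 111 other genes, of which 109 passed the filter. Of these 109, 9 rose and 5 fell by limma and the fold limit, both smaller shares than the 11.6% and 11.8% of all genes tested. The median log2 fold change was 0.02, against 0.01 for all genes tested. The genes named below are therefore a description. Of 27 genes of signal recognition, insertion and signal peptidase, 9 were higher and 8 lower by adjusted p alone. Among all genes tested these shares were 23.2% and 22.3%. With the fold limit 3 of the 27 rose and 0 fell. Those that rose were RRBP1, a ribosome-binding membrane protein (1.06), the channel paralog SEC61A2 (0.62) and TRAM1, which sits beside the channel (0.60). Of 19 glycosylation genes the mannosidase MAN1B1 rose (0.66) and OST4, a small subunit of the oligosaccharyltransferase, fell (-0.62). Of 26 folding and oxidation genes the prolyl isomerases PPIC (1.29) and FKBP9 (0.91) and the oxidase ERO1B (0.62), which recharges disulfide isomerases in beta cells, rose, and the collagen chaperone SERPINH1 fell (-0.81). Of 23 further degradation genes 0 rose, and UFD1, a cofactor of VCP, and the ubiquitin ligase RNF5 fell (-0.73 each). By adjusted p alone 5 of the 23 were higher and 4 lower, near the shares of all genes. Of 14 stress signalling and protease genes PPP1R15A, a phosphatase subunit that reverses the action of PERK (0.65), and the membrane-bound factor CREB3L2 (1.16) rose, and its relative CREB3L4 fell (-0.94). An ERSE, ERSE-II or UPRE lay in the windows of 4 of 91 of these genes (4.4%), against 37.2% of the 43.

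For 17 of the 47 genes the last 1000 bases overlap an exon of another gene in GENCODE v44, and reads there can be shared. Of the genes that rose these were HSP90B1, HYOU1 and PDIA3, each with a gene on the opposite strand, and whether counting used strand is not given in the sources used here. On the same strand the overlap concerned ATF6B, DNAJB11, OS9, SYVN1 and TXNDC5.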

How the data were processed

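Poly(A) RNA of 12 EndoC-βH3 samples was profiled by CEL-seq2. The authors trimmed reads with Cutadapt, counted them on GRCh38 with Salmon 0.13.1 and normalised them with DESeq2. The deposited values are a signal, reads per gene divided by 1 size factor per library. The annotation, the use of molecular identifiers and strandedness are not given in the sources used here, and Salmon divides reads among similar transcripts. The deposited fold changes and p-values were not used. Batch letters and replicate numbers came from sample titles. Nothing says that libraries came from separate cultures, so p-values measure the spread between these samples, which may be technical.

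Whole reads were recovered for 100% of 196021 non-zero values (within 0.01 of a whole read). Totals were 4672924 to 17106776 reads, and a zero allows up to 3 reads, counting error only. Groups were tested with limma 3.58.1 (R 4.3.3) and its intensity trend (pseudocount 1, which understates changes of low genes), with Benjamini-Hochberg adjustment. edgeR 4.0.16 and DESeq2 1.42.0 on the recovered reads, other scalings, filters (mean of at least 20, or none), pseudocounts, weights, batches and single libraries left out were alternatives. The procedure was tested on simulated data. The members, roles and lists were chosen with earlier results of these data known, although the rule for the members uses none of these values, so their shares against all genes are a description. Named were all called members, the sensors, XBP1 and HSPA5, the largest response per role, members that differed between batches, and up to 3 rises and 3 falls per list of other ER genes. Older symbols stood for GET1, GET3 and MARCHF6. No libraries were identical, with a chi-square per degree of freedom of 4.28 to 8.05 between replicates. Gene positions came from GENCODE v44.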

Additional observations from a re-analysis of the deposited data

Results flagged for a closer look

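In 3 of 94 groups of 6 libraries tested, 1 library stood far from the rest, judged by its gap to the nearest library as a share of the whole range. Chance alone flags about 1 in 20 groups, a rate that takes no account of batch, while each group held 2 libraries of batch A and 4 of batch B. For MANF the gap share was 0.679, since non-senescent library B4 stood at 767 normalised read counts and the next at 604. SEC61G had a gap share of 0.633, with the same library at 1344 and the next at 1001. SEC62 had a gap share of 0.650, with non-senescent library A2 at 1490.1 and the next at 1378.

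The senescence response of 4 genes differed between batches by the limma interaction test. The log2 fold change of batch B minus that of batch A was 0.93 for XBP1 (adjusted p 0.00216), 0.81 for SEC63 (0.00521), 0.57 for SEC62 (0.0181) and 0.39 for HSP90B1 (0.0863). SEC62 and HSP90B1 did not pass without the intensity trend, and HSP90B1 also missed in 10 of the fits with 1 library left out.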

How the results depend on the processing

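The 9 higher calls became 5 with libraries scaled to the same total (10.6%, against 8.85% of all genes), 5 in batch A alone (against 12.3%), 14 in batch B alone (29.8%, against 12.5%) and 8 to 11 with 1 library left out. The 0 lower calls became 2 at the same total, 1 in batch A (ERN1), 1 in batch B (TXNDC5) and 0 to 1 with 1 library left out. By adjusted p alone, the 23 higher became 11 without a batch term and 22 to 24 with 1 library left out. The 4 lower became 9 at the same total, 0 without a batch term and 2 to 5 with 1 library left out (2 without senescent B3). The share of all genes by adjusted p alone was not taken at these settings, so these counts have no background beside them. The 9 other ER genes called higher became 4 at the same total, where 8.85% of all genes were called higher. The 4 genes that differed between batches became 2 without the intensity trend and 2 to 6 with 1 library left out, where a lone library of batch A was assumed to vary like the rest. The log2 fold change changed sign at the same total for ATF6B (-0.064), CALR (-0.090), DERL3 (-0.10), MANF (-0.069), P4HB (-0.033), SEC61A1 (-0.023) and SPCS3 (-0.050). In batch A alone it did so for CALR (-0.12), DERL3 (-0.56), DNAJB11 (-0.0056), EDEM1 (-0.32), EDEM2 (0.13), MANF (-0.054), P4HB (-0.18), SEC61A1 (-0.18), SEC63 (-0.072), SPCS3 (-0.18), SYVN1 (-0.0058) and XBP1 (-0.46). Array weights did so for CALR (-0.027), DERL3 (-0.16), P4HB (-0.0014), SEC61A1 (-0.000744) and XBP1 (-0.023), and for DERL3 so did a pseudocount of 0.1 (-0.00316) and upper quartile scaling (-0.00933). With 1 library left out, ATF6B ranged from -0.0091 to 0.12, CALR from -0.017 to 0.055, CREB3 from -0.10 to 0.019, DERL3 from -0.11 to 0.12, MANF from -0.0044 to 0.11 and SPCS3 from -0.083 to 0.16. The cause of these changes was not tested. Samples of the same number did not deviate together (r -0.05 to 0.02), and a replicate block left the counts at 9, 0, 23 and 4. Depth limits the low genes, EDEM1 with as few as 6 reads in a library, DERL1 and DERL3 with 22, ERN1 with 24 and EDEM2 with 25.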
